A study of Mus musculus with 42 samples.

Results

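The vomeronasal type 2 receptor (Vmn2r) genes were followed for their position in lamina-associated domains (LADs) of mouse liver. Members were the protein-coding genes on the autosomes of mm10 whose symbol starts with Vmn2r in the GENCODE vM21 annotation. They numbered 121 of 20807 autosomal protein-coding genes, and no measured value entered the choice. Vmn2r-ps130 and Vmn2r-ps159 carry pseudogene-style symbols but are annotated as protein-coding and were kept. A member was called inside a LAD of a library when its start site lay in a deposited LAD interval of that library.

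LMNB1, or lamin B1, is a filament protein of the nuclear lamina, and the study asked whether its contacts with chromatin change over the circadian cycle. Livers of wild-type C57Bl/6 mice were profiled by LMNB1 ChIP-seq, with no transgene or deletion in any group. The non-synchronized (NS) mice gave liver at midday, before any fasting began. All other mice were fasted for 24 h and then given food again from circadian time CT0, and were taken at CT0, CT6, CT12, CT18, CT24 and CT30. Each of these 7 time points had 2 mice and 1 library per mouse, 14 libraries in all. The labels call the mice female in their sample fields and male in their growth protocol. The paper's methods call them male, and no age is given in the sources used here. Liver pieces hold several cell types, so contact in some of the cells and weaker contact in all of them cannot be told apart. The files hold intervals and no expression values, so the tissue could not be checked against marker genes, and no read counts, so the depth is unknown.

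V2Rs are G protein-coupled receptors with a long extracellular domain, carried by sensory neurons in the basal layer of the vomeronasal organ. They detect peptide and protein cues, among them exocrine-gland secreting peptides, and signal through the G protein subunit encoded by Gnao1 and the channel encoded by Trpc2. The genes arose by repeated duplication and lie in tandem arrays, and they have no known role in liver.

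The libraries differed in how finely LADs were called. Of 2845 LAD starts, 82 were not at a whole kb and were left out of the step. The others lay on a grid whose step, read from the files, ranged from 4 kb (NS replicate 2 and CT0 replicate 2) to 61 kb (NS replicate 1). The 5 libraries with steps above 19 kb were NS replicate 1, CT0 replicate 1, CT6 replicate 1 and both CT30 replicates. They held 86 to 143 LADs covering 13.5 to 20.1% of the autosomes, and 44 to 62 members lay inside. The 9 libraries with steps up to 19 kb held 159 to 341 LADs covering 21.0 to 26.5%, and 68 to 84 members lay inside. The members' counts in these sets of libraries did not overlap. Nor did the shares of all autosomal protein-coding genes, 4.18 to 7.30% in the 5 libraries and 8.20 to 10.8% in the 9. The part of the step in the results was not tested.

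In the median library 59.5% of the members lay inside a LAD, against 8.40% of all autosomal protein-coding genes. The members ranged from 36.4% (44 genes, CT0 replicate 1) to 69.4% (84 genes, CT12 replicate 1), and all genes from 4.18% (NS replicate 1) to 10.8% (CT18 replicate 2). In each library the share of members exceeded that of all genes. The other large chemoreceptor families were also often inside. The 208 Vmn1r genes, which encode vomeronasal type 1 receptors, had a median of 45.4% with a range of 11.1 to 61.5%. The 1128 Olfr genes, which encode odorant receptors of the main olfactory epithelium, had a median of 59.6% with a range of 5.05 to 68.5%. These shares are descriptions with no test, since genes of a tandem array share LADs and are not independent.

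At NS 47 members lay inside in one mouse and 83 in the other, and at CT0 44 and 74. At CT6 the counts were 62 and 82, at CT12 84 and 76, and at CT18 68 and 83. CT24 had 70 and 78, and CT30 55 and 57. As percent of members the mean was highest at CT12 (66.1 ± 4.68%, SD, n = 2, as in the values that follow), then 62.4 ± 8.77% for CT18, 61.2 ± 4.68% for CT24 and 59.5 ± 11.7% for CT6. It was lower in NS mice (53.7 ± 21.0%), CT0 mice (48.8 ± 17.5%) and CT30 mice (46.3 ± 1.17%). The 2 NS mice spanned the means of all other time points, and NS replicate 1 and CT0 replicate 1 had fewer members inside than any other library. The members inside in both mice numbered 44 at NS, 43 at CT0, 61 at CT6 and 71 at CT12, and then 68, 66 and 53 at CT18, CT24 and CT30. For all genes the share inside in both mice was 2.45% at NS, 3.93% at CT0, 7.49% at CT12, 7.79% at CT18 and 4.57% at CT30. The mean share of all genes was also lowest at CT30 (6.05%), NS (6.23%) and CT0 (7.08%). It was highest at CT18 (10.3%), then 9.18% at CT12, 8.84% at CT24 and 8.74% at CT6. Both CT30 libraries, NS replicate 1 and CT0 replicate 1 had steps above 19 kb, as did CT6 replicate 1. The part of the step in the order of the time points was not tested.

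**Figure D1:**
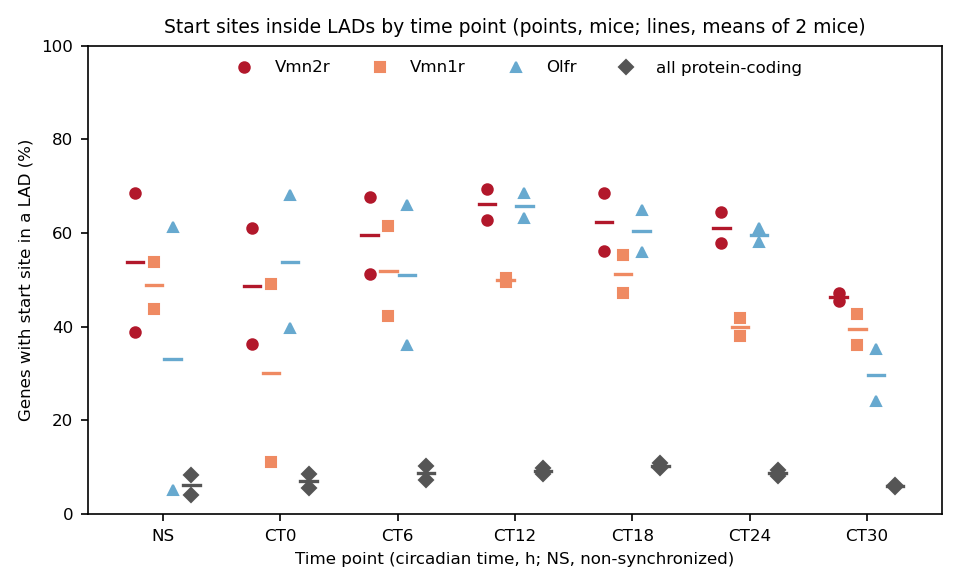
Percent of genes with the start site inside a LAD (y axis) at each time point (x axis) for Vmn2r, Vmn1r, Olfr and all autosomal protein-coding genes. Each point is 1 mouse and each line the mean of 2 mice. The Vmn2r points lie between 36.4% and 69.4%, above all protein-coding genes in every library.

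The members ranged from always inside to never inside. Of the 121 members, 36 (29.8%) lay inside in all 14 libraries, 64 (52.9%) in 1 to 13 and 21 (17.4%) in none, with a median of 9 libraries. Of all autosomal protein-coding genes, 182 (0.875%) lay inside in all 14 and 82.9% in none. The Vmn1r genes had 5.29% in all 14 with a median of 3.5 libraries, and the Olfr genes 0.709% with a median of 9. The members made up 19.8% of the 182 genes inside in every library and 0.582% of all genes. With only the 9 libraries on finer steps, a choice made after seeing the data, 59 members lay inside in every library and 22 in none. The same counts were not made over all genes, so the rise cannot be read as particular to the members.

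**Figure D2:**
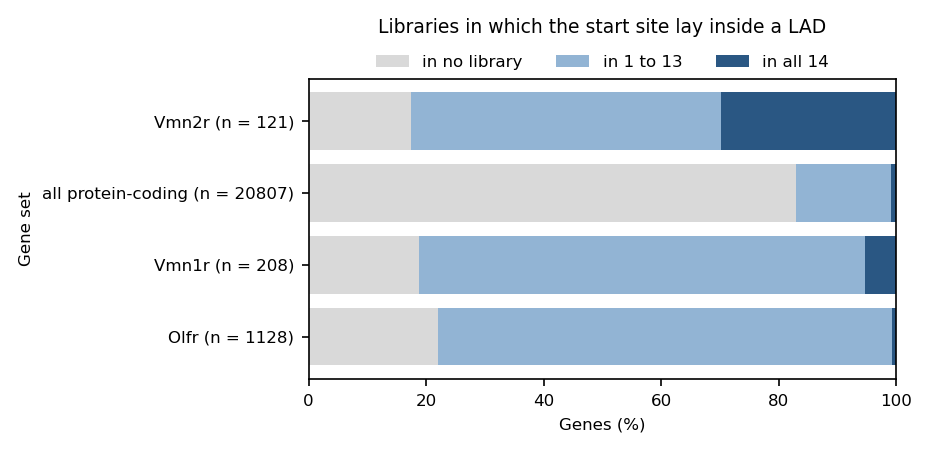
Percent of genes (x axis) inside a LAD in no library, in 1 to 13 libraries and in all 14, by gene set (y axis, with the number of genes). For Vmn2r the darkest segment is 29.8%, against 5.29% for Vmn1r, 0.709% for Olfr and 0.875% for all protein-coding genes.

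The 121 members fell into 17 clusters on 8 chromosomes, a cluster being a run of members with start sites within 1 Mb of the next. Chromosome 7 held 51 members, chromosome 17 held 32, chromosome 5 held 11, chromosome 6 held 9, chromosome 10 held 8, chromosome 3 held 7, chromosome 14 held 2 and chromosome 4 held 1. State differed between clusters. All 36 members that were always inside lay in the 2 largest clusters, on chromosomes 7 and 17, which together hold 46 members. In 5 clusters with 15 members no start site lay inside a LAD in any library. Across the 14 libraries the members showed 31 distinct patterns of state.

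**Figure D3:**
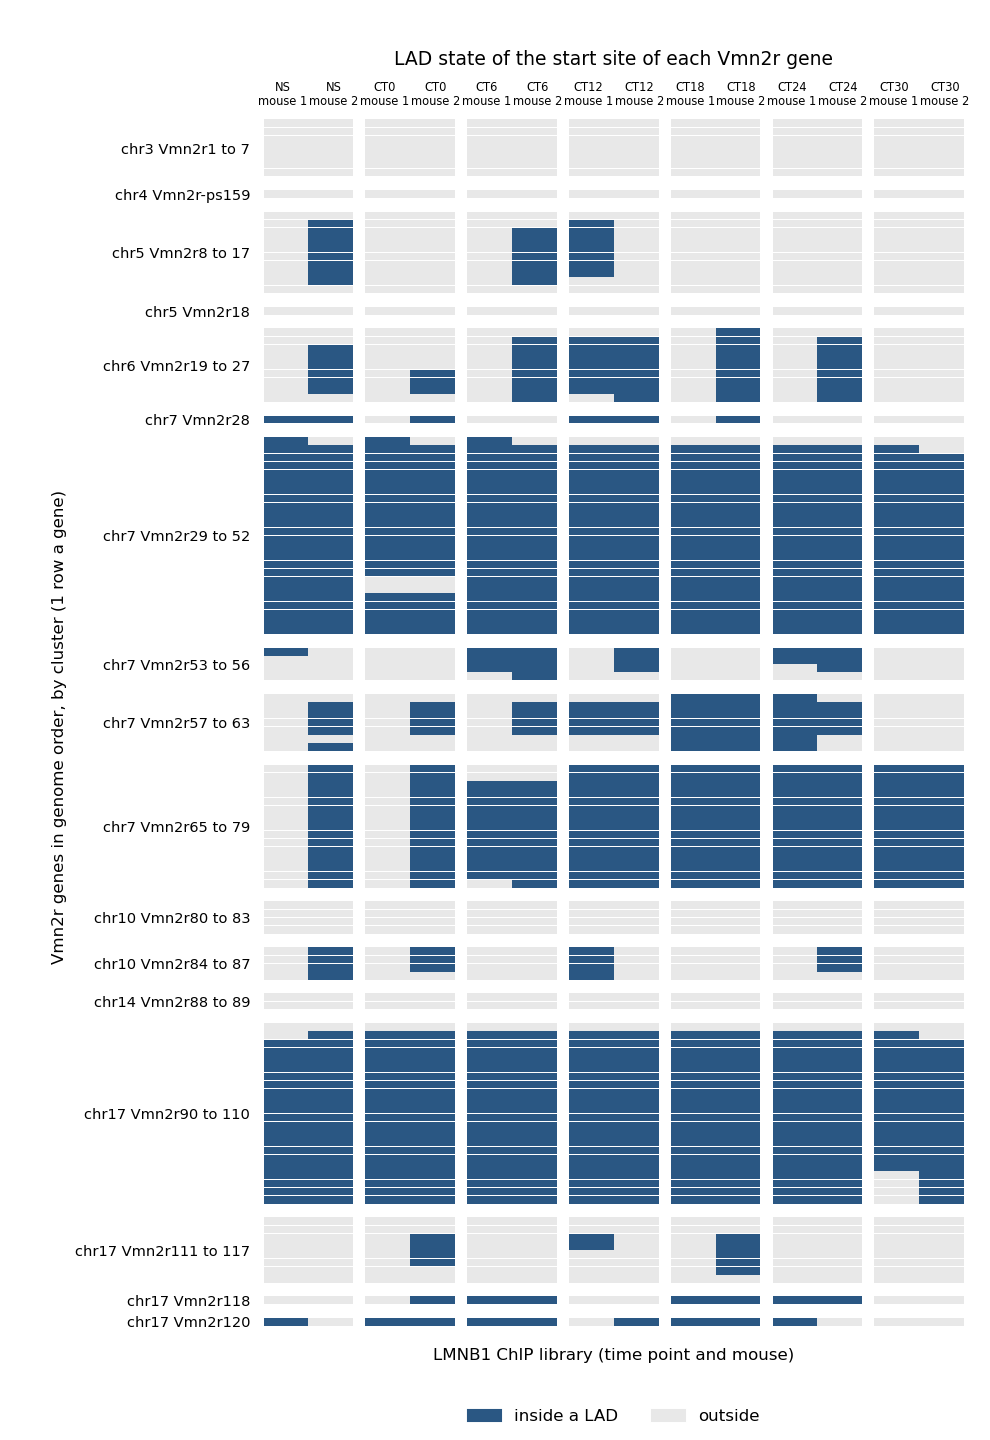
LAD state of the start site of each Vmn2r gene (rows, in genome order and grouped by cluster) in each LMNB1 ChIP library (columns, 2 mice per time point). Dark cells are inside a LAD and pale cells outside. The chromosome 7 cluster from Vmn2r29 to Vmn2r52 and the chromosome 17 cluster from Vmn2r90 to Vmn2r110 are dark in nearly every column, and 5 clusters are pale throughout.

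The family C receptors Vmn2r1 to Vmn2r7, which are expressed broadly among V2R neurons alongside the other, more selectively expressed receptors, lay outside in every library. Their cluster (chr3:64081547-64844765) had 7 members and 0% of its span in LADs in all 14 libraries. The nearest LAD was 0.986 Mb away at the closest and 5.87 Mb away in the median.

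Vmn2r88, a receptor for haemoglobin, was also outside in all 14 libraries, as was its neighbour Vmn2r89. Their cluster on chromosome 14 (chr14:51410820-51464172) lay 0.907 Mb from a LAD at the closest, with a median of 8.59 Mb. Vmn2r26, a receptor for peptides presented by class I molecules, was inside in 7 libraries. These were NS replicate 2, CT0 replicate 2, CT6 replicate 2, both CT12 replicates, CT18 replicate 2 and CT24 replicate 2. Only at CT12 were both mice inside.

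Vmn2r116, the receptor of the male pheromone ESP1, was inside in CT18 replicate 2 and in no other library. LADs covered 72.7% of the 200 kb around its start site there, 41.7% in CT0 replicate 2 and 0% in the other 12 libraries. Vmn2r115, the receptor of the juvenile pheromone ESP22, was inside in CT0 replicate 2 and CT18 replicate 2 only. The cluster that holds both, Vmn2r111 to Vmn2r117 (chr17:22544504-23479699), had no member inside in 11 libraries. The 3 libraries with a member inside had steps of 4 to 6 kb.

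All 15 exocrine-gland secreting peptide genes, which also lie on chromosome 17 and include Esp1 and Esp22, were inside in all 14 libraries. They lie in 1 stretch (chr17:38416474-40731782), so their states are not independent. The 10 genes listed under signal transduction of vomeronasal neurons, among them Gnao1, Trpc2 and B2m, were outside in all 14. So were the 9 listed H2-M genes (H2-M1, H2-M9, H2-M11 and the H2-M10 genes), which encode non-classical class I molecules of V2R neurons. These H2-M genes also lie in 1 stretch (chr17:36284227-36815564). The 5 listed class C receptors that are related, namely Casr, Gprc6a, Tas1r1, Tas1r2 and Tas1r3, were outside in all 14 too. Of all autosomal protein-coding genes, 82.9% were likewise outside in all 14, and 0.875% were inside in all 14. The 7 formyl peptide receptor genes were split. Fpr1 and Fpr2, receptors of immune cells, and Fpr3 were outside throughout, Fpr-rs4 was inside in 11 libraries, Fpr-rs3 in 13, and Fpr-rs6 and Fpr-rs7 in all 14.

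The split of the formyl peptide receptor genes fell at the edges of the LAD that holds most of a Vmn2r cluster. The cluster from Vmn2r90 to Vmn2r110 (chr17:17703747-20596423) has 22 members over 2.89 Mb, with 10 other protein-coding genes within it, of which 6 are Fpr genes and 2 are Vmn1r genes. In every library it was held by a LAD that started between 17.917 and 18.078 Mb and ended between 20.305 and 21.289 Mb. Vmn2r90 lay before the start and was outside in all 14 libraries, at least 0.213 Mb from the LAD. Vmn2r124, the next member, was inside in 12, all except NS replicate 1 and CT30 replicate 2. Vmn2r91 to Vmn2r106 were inside in all 14. Vmn2r107 to Vmn2r110 were inside in all libraries but CT30 replicate 1, where the LAD ended at 20.305 Mb. The cluster's mean share of members inside was 95.5 ± 0% at each of CT0, CT6, CT12, CT18 and CT24, 93.2 ± 3.21% at NS and 84.1 ± 9.64% at CT30 (SD, n = 2).

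The other cluster that was inside at every time point runs from Vmn2r29 to Vmn2r52 (chr7:7231327-10176573), with 24 members over 2.95 Mb and 3 other protein-coding genes. LADs covered 87.1 to 98.3% of its span, with a median of 94.7%. Its first member, Vmn2r29, was inside in 3 libraries, namely the first replicates of NS, CT0 and CT6, whose steps were 61, 47 and 35 kb. In those libraries the LAD began at 5.307, 6.298 and 7.000 Mb, and in the other 11 between 7.304 and 7.360 Mb, past the start site of Vmn2r29. Vmn2r30 was inside in 13 libraries, all except CT30 replicate 2, with its start site a median of 0.0276 Mb from the edge of the LAD.

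No LAD ran across the whole cluster in any library. A gap of 50 kb of unknown bases in the reference (chr7:9586555-9636554) lies inside it, between Vmn2r37 and Vmn2r46, and in all 14 libraries 1 LAD ended at or before the gap and another began at or after it. LADs ended 0 to 56.6 kb before the gap. In NS replicate 1 the LADs ended and began at the exact limits of the gap. How the LAD caller treats gaps of the reference is not given in the sources used here, and its part in the break was not tested.

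Past the gap the CT0 mice differed from all others. In the 12 libraries of the other time points the LAD resumed 0 to 23.4 kb after the gap, and in both CT0 libraries 233 and 243 kb after it. The start sites of Vmn2r46 and Vmn2r47 lie in that stretch, and both genes were outside in both CT0 mice and inside in the other 12 libraries. LADs covered 100% of the 200 kb around Vmn2r46 in those 12 libraries, and 0.285% and 0% in the CT0 mice. Around Vmn2r47 they covered 100% in the 12, and 35.7% and 30.7% at CT0. Vmn2r48, the next member, stayed inside in all 14 libraries, with 91.8% and 86.8% covered at CT0. The groups did not overlap for any of these genes, but with a change at 1 time point only the exact permutation test cannot go below p = 0.0909, the value that each of the 3 had for window coverage.

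**Figure D4:**
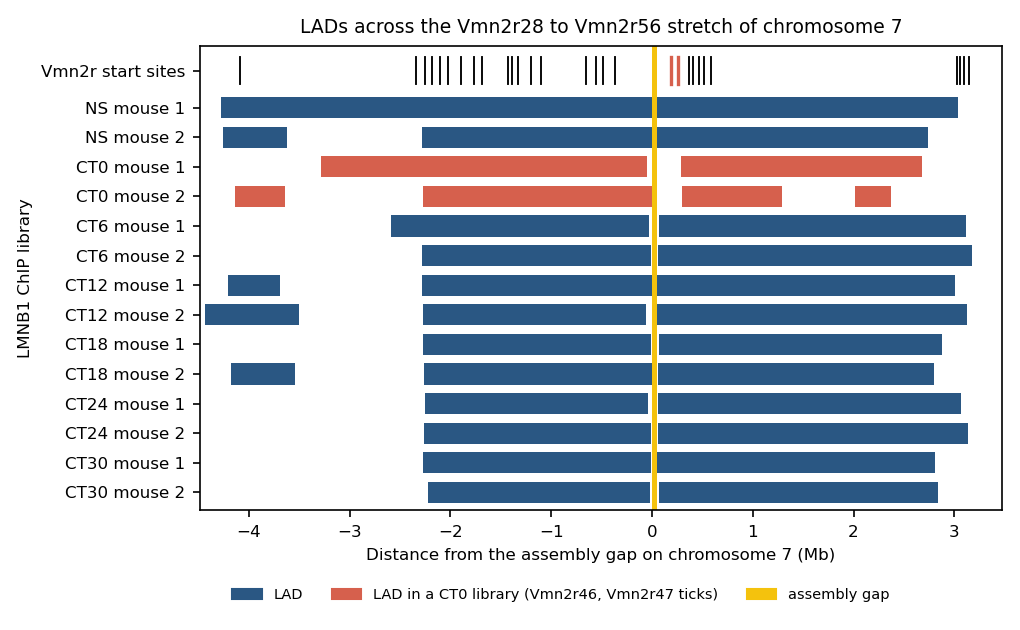
LADs (bars) in each library (rows) over the stretch of chromosome 7 that holds Vmn2r28 to Vmn2r56, by distance from the assembly gap in Mb (x axis), with Vmn2r start sites as ticks on top. Bars of the CT0 libraries and the ticks of Vmn2r46 and Vmn2r47 are in red. Only the CT0 bars resume more than 23.4 kb after the gap, leaving both red ticks uncovered.

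The members of this cluster are close copies of each other. The coding sequences of the 121 members had a median of 2565 bases, and 107 members had 6 exons. For 120 of them another member aligned over at least 0.5 of the coding sequence, with a median identity of 95.3% to the nearest one. That nearest member was in the same cluster for 112, and 63 members had a copy of at least 95% identity and 29 of at least 98%. Vmn2r40 and Vmn2r41 were the closest, at 99.8%, and both were inside in all 14 libraries. Vmn2r29 and Vmn2r46 were 99.5% identical and lay inside in 3 and 12 libraries. ChIP reads from such copies may have been placed on more than 1 member, and the effect of this on the LADs was not tested.

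Some promoters were alike too, though promoter and coding identity were not compared over all members. Of the 121 members, 114 had a RefSeq promoter, and 152 pairs of promoters were at least 80% identical where the 250 bases before the start were aligned without gaps, over 228 to 250 bases a pair. Both members of a pair were in the same cluster each time. The promoters of Vmn2r29 and Vmn2r35, inside in 3 and in 14 libraries, were 96.8% identical over all 250 bases. They are shown first below (GRCm38.p6, RefSeq, 5′ to 3′ on the strand of the gene), at chr7:7247329-7247578 and chr7:7819868-7820117, both on the minus strand. Vmn2r48 (chr7:9953586-9953835, minus strand, 14 libraries) and Vmn2r61 (chr7:42259803-42260052, plus strand, 9 libraries) hold the E-box CACGTG, the site that CLOCK and BMAL1 bind. Vmn2r19 (chr6:123308083-123308332, plus strand, 1 library) holds the TATA box letters TATAAA. Capitals mark these letters on either strand.
Vmn2r29: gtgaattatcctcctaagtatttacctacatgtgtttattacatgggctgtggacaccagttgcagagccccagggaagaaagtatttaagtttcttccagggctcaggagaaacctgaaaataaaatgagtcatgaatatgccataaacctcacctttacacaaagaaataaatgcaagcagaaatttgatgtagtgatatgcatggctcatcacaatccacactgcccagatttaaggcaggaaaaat
Vmn2r35: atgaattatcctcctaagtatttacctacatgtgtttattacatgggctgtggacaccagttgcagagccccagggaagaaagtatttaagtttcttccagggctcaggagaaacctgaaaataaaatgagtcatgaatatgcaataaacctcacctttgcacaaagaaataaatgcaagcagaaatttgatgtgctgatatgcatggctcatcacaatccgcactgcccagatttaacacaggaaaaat
Vmn2r48: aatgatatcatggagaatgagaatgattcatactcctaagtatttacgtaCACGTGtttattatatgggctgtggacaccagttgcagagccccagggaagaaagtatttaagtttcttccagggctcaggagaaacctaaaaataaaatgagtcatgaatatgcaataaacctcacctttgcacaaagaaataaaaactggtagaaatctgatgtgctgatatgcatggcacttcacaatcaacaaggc
Vmn2r61: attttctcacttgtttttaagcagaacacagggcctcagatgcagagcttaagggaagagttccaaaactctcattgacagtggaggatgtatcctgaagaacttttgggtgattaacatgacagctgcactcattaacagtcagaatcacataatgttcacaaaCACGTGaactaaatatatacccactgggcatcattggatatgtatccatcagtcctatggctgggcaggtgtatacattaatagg
Vmn2r19: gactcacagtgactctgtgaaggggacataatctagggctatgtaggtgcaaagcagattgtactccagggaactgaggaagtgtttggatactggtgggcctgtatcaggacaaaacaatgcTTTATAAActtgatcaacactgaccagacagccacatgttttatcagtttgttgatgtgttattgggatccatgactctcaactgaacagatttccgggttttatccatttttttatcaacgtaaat

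Motifs were counted from 250 bases before to 50 after the start, in 1 promoter per member and in every autosomal RefSeq promoter. CACGTG, its own reverse complement, was in 10 of the 114 promoters (8.77%) against 7.14% of 31396 autosomal promoters. TATAAA, or its complement TTTATA, was in 26 (22.8%) against 13.6%. GAGAGA, or TCTCTC, letters of the kind bound by ZBTB7B, was in 21 (18.4%) against 24.0%. The 3 motifs do not overlap each other in their letters. Many member promoters are near copies, so for each motif the members' share does not rest on independent promoters, and none was tested. Of the 10 promoters with CACGTG, 7 belong to the Vmn2r29 to Vmn2r52 cluster and all 7 genes were inside in all 14 libraries, but these are near copies of each other. Of the 24 members of that cluster, all but Vmn2r29, Vmn2r30, Vmn2r46 and Vmn2r47 were inside in all 14, with the motif or without it. Member promoters had a median GC content of 38% and a median of 1 CpG, against 53% and 7 over all promoters.

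A second chromosome 7 cluster had members inside in most libraries. Vmn2r65 to Vmn2r79 (chr7:84935565-87044941) has 15 members and, within its span, 15 Olfr genes. It had all members inside in 10 libraries and none in NS replicate 1 and CT0 replicate 1, which had the coarsest steps, 61 and 47 kb. Vmn2r65 and Vmn2r66 were outside in both CT6 mice and inside in both CT12 mice, and inside in all later libraries. From CT12 to CT30 the share inside was 100 ± 0% (SD, n = 2) at every time point, while NS and CT0 had 50.0 ± 70.7%, all in one mouse and none in the other.

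The Vmn2r57 to Vmn2r63 cluster (chr7:41395945-42933822, 7 members) was inside in full at CT18, in both mice, and not at all at CT30. At CT12 the LAD in both mice held 4 of the 7, Vmn2r58 to Vmn2r61. At CT18 the LADs reached from 40.902 or 40.926 Mb to 43.272 or 43.282 Mb and also took in Vmn2r57, Vmn2r62 and Vmn2r63. At CT24 one mouse held all 7 and the other 4. No member of the cluster was inside in the 5 libraries with steps above 19 kb, which include both CT30 libraries, so the CT30 state and the step cannot be told apart. At NS, CT0 and CT6 Vmn2r58 to Vmn2r61 were inside in replicate 2 and outside in replicate 1.

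Vmn2r53 to Vmn2r56 (chr7:12562851-12735004) lie at the far edge of the LAD that follows the assembly gap. Vmn2r53 was inside in both mice of CT6 and of CT24, in 1 mouse of NS and of CT12, and in no mouse of CT0, CT18 or CT30. LADs covered 98.1% and 100% of the 200 kb around its start site at CT6, 40.6% and 100% at CT12, and 73.6% and 100% at CT24. The coverage was 0% in all 6 libraries of CT0, CT18 and CT30, and 59.1% and 0% at NS. Vmn2r54 was inside in the same libraries except NS replicate 1. Of all members these 2 had the smallest p-values for window coverage over CT0 to CT30 (exact permutation test, p = 0.0216 for Vmn2r53 and p = 0.0361 for Vmn2r54), and neither passed after adjustment over all genes (adjusted p = 1).

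Vmn2r28 (chr7:5477255-5493956), alone in its cluster, was inside in both mice of NS and of CT12, in 1 mouse of CT0 and of CT18, and outside at CT6, CT24 and CT30. In NS replicate 1 a LAD of 4.28 Mb joined it to the cluster from Vmn2r29 onward, and in the other 5 libraries its LAD was 0.504 to 0.930 Mb long. Vmn2r118 (chr17:55590370-55625192) was inside in both mice of CT6, CT18 and CT24 and in 1 mouse of CT0, and outside at NS, CT12 and CT30. In all 7 libraries its LAD began at the same base, 54.711988 Mb, off the grid of steps, and ended between 55.65 and 55.86 Mb. Vmn2r120 (chr17:57506453-57545505) was inside in 9 libraries, and in both mice at CT0, CT6 and CT18.

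**Figure D5:**
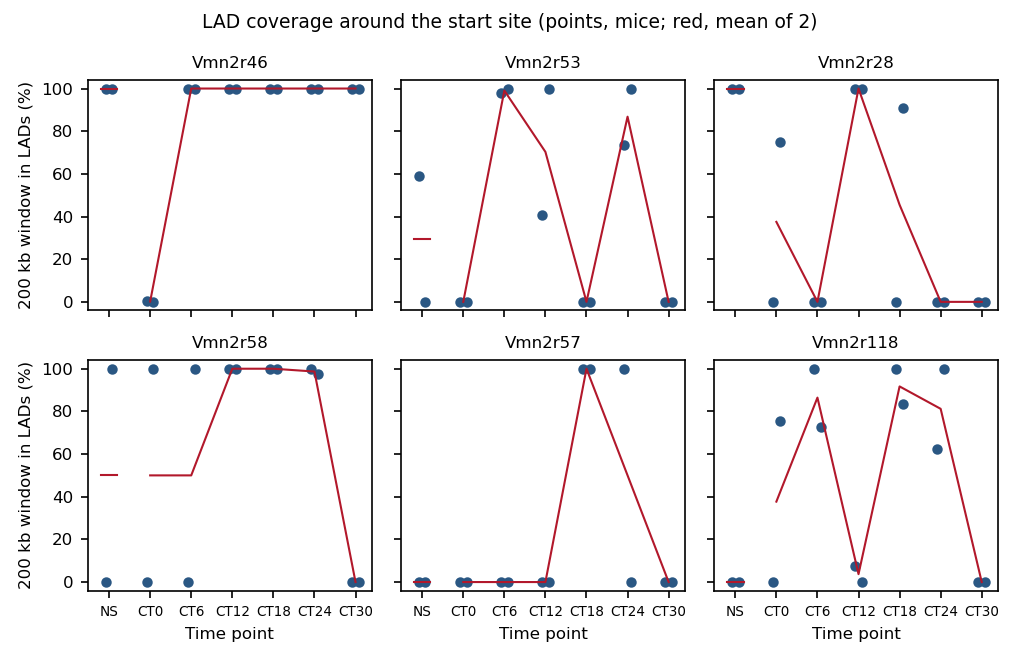
Percent of the 200 kb around the start site covered by LADs (y axis) at each time point (x axis) for 6 members that changed state in both mice between neighbouring time points. Points are mice and red lines means of 2 mice. Vmn2r46 falls to 0.285% and 0% at CT0 alone, and Vmn2r53 is at 0% in both mice of CT0, CT18 and CT30.

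A further 3 clusters had members inside in libraries on finer steps only. Vmn2r19 to Vmn2r27 on chromosome 6 (chr6:123308333-124231856, 9 members) had a member inside in 7 libraries with steps of 4 to 18 kb. Both mice held Vmn2r20 to Vmn2r26 at CT12, and 7 of the 9 members were inside in both. Vmn2r8 to Vmn2r17 on chromosome 5 (chr5:108791843-109458459, 10 members) had a member inside in 3 libraries with steps of 4 to 11 kb. Vmn2r8 and Vmn2r17 at its ends were outside in all 14. Vmn2r84 to Vmn2r87 on chromosome 10 (chr10:130377925-130497396) had a member inside in 4 libraries with steps of 4 to 18 kb. In neither of the last 2 clusters was a member inside in both mice of a time point.

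The remaining clusters never met a LAD. Vmn2r80 to Vmn2r83 (chr10:79148769-79493585), far from the other chromosome 10 cluster, lay at least 4.28 Mb from a LAD. Vmn2r18 (chr5:151561190-151606021) lay at least 42.2 Mb from a LAD and 0.229 Mb from the end of its chromosome. Vmn2r-ps159 (chr4:156331103-156339499) lay at least 8.49 Mb from a LAD and 0.169 Mb from the chromosome's end, with 62.2% of its 200 kb window made of unknown bases.

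Base composition differed little among the members. The GC content of the 200 kb around the start site had a median of 37.9% for the 36 members always inside, 38.5% for the 64 inside in some libraries and 39.2% for the 21 never inside. Over all genes the medians were 37.8%, 39.6% and 45.4% for the same classes. The members that were never inside thus had a GC content close to that of genes inside in some libraries. Within 500 kb of the start site the members had a median of 8 protein-coding genes when always inside, 13 when inside in some libraries and 10 when never inside. Over all genes the medians were 6, 17 and 16 for the same classes.

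For changes between time points a member was counted when both mice of one were outside and both of the other inside. From NS to CT0, 0 members gained and 2 lost LAD state (Vmn2r46 and Vmn2r47), and of all genes 0.346% gained and 0.38% lost it. From CT0 to CT6, 5 members gained (Vmn2r46, Vmn2r47, Vmn2r53, Vmn2r54 and Vmn2r55) and 0 lost it, against 1.04% and 0.0913% of all genes. From CT6 to CT12, 3 gained (Vmn2r28, Vmn2r65 and Vmn2r66) and 1 lost it (Vmn2r118), against 0.538% and 0.442%. From CT12 to CT18, 4 gained (Vmn2r57, Vmn2r62, Vmn2r63 and Vmn2r118) and 0 lost it, against 0.457% and 0.178%. From CT18 to CT24, 2 gained (Vmn2r53 and Vmn2r54) and 0 lost it, against 0.231% and 0.476%. From CT24 to CT30, 0 gained and 7 lost it (Vmn2r53, Vmn2r54, Vmn2r58 to Vmn2r61 and Vmn2r118), against 0.509% and 2.22%. The steps were 14 and 18 kb at CT24 and 31 and 46 kb at CT30. The change of time point and the step thus cannot be told apart here.

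As shares of the 121 members the largest of these were 4.13% for the gain at CT6 and 5.79% for the loss at CT30, above the share of all genes. Most genes are never inside a LAD and cannot change. Among the genes inside in 1 to 13 libraries, 5 of 64 members (7.81%) gained at CT6 against 6.43% of 3375 genes, 4 of 64 (6.25%) at CT18 against 2.81%, and 7 of 64 (10.9%) lost at CT30 against 13.7%. These counts depended on single libraries. With 1 library left out, 1 mouse sufficed at its time point. The gain at CT6 then rose to 18 members without CT0 replicate 2 or without CT6 replicate 1, and the loss at CT0 to 15 without NS replicate 1. The loss at CT30 rose to 19 without CT24 replicate 1. When LADs shorter than 1 Mb were dropped, the loss at CT30 was 2 members and the gain at CT18 was 7. The same counts were not made over all genes, so none of these shifts can be read as particular to the members. No test was made, since an exact permutation test of 2 mice against 2 cannot go below p = 0.33.

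Differences among the time points from CT0 to CT30 were tested over all genes. The state of the start site was tested for each of the 3086 genes that varied, by an exact permutation test of the F ratio over every way of dividing the 12 libraries into 6 pairs, with Benjamini-Hochberg adjustment. Of the 64 members tested 0 passed, as did 0 of all genes (0%), and 0 members had an unadjusted p under 0.05, against 34 of all genes (1.1%). The smallest p that a 0 or 1 state can reach here is 0.0216, and the smallest of a member was 0.0909. At the smallest p, 1336 of the 3086 genes would have to reach it together to pass the adjustment, so the count of 0 for state says nothing about stability. With coverage of the 200 kb window, 0 of 73 members and 0 of 3711 genes passed (0%), and 2 members (2.74%) had an unadjusted p under 0.05 against 105 genes (2.83%). Here the smallest p is 9.62e-05, and 8 genes at it would pass. The members' share was thus close to that of all genes.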

How the data were processed

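Per the labels, LMNB1 ChIP-seq was done on liver of 2 mice per time point. The authors mapped reads to mm10 with Bowtie (Bowtie2 2.25.0 in the submitters' processing notes), removed duplicates with Picard, matched each ChIP to its input in depth and ran EDD on each mouse. The deposited files give the start and end of each LAD, 2845 in all, with no score or signal. Inputs and RNA-seq were not used here.

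Start sites came from GENCODE vM21 on GRCm38.p6. State, coverage of the 200 kb around the start site and clusters were computed with Python 3.11.15 and NumPy 2.4.6. Varying genes were tested over the 12 CT libraries by exact permutation tests with Benjamini-Hochberg adjustment over all of them at 0.05, and the test was checked on simulated data. Unknown bases counted as part of a window. Coding sequences were compared with blastn 2.17.0. Promoters are RefSeq's, 101 of them within 500 bases of the GENCODE start. Replicate numbers are those of the labels. They were not used to pair the mice in the main tests. The deviations of same-numbered mice correlated at -0.162 to 0.328 over 15 pairs of CT time points, with a median of 0.0508. The correlation was over 0.1 in 3 pairs, namely CT0 with CT6 (0.283), CT6 with CT18 (0.328) and CT0 with CT24 (0.12). NS was not included, and whether the numbers mark pairs or batches of mice was not tested.

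Alternatives changed the LAD size, the joining of LADs, the window, the gene set, the cluster distance and the libraries. Genes named were cluster ends, all genes of clusters of up to 3, the 5 in fewest and in most libraries, the 10 smallest p-values for window coverage, those that changed in both mice, the family C receptors and those with a known ligand. Others, among them Vmn2r30, Vmn2r40, Vmn2r41 and Vmn2r124, were named after their values were seen. The members and lists were chosen with earlier results of these data known.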

Additional observations from a re-analysis of the deposited data

How the results depend on the processing

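For window coverage no member passed the adjusted threshold in any of the alternatives. For the state of the start site none passed either, but many genes would have had to reach the smallest p together (1336 with all 12 CT libraries and no block), so this says nothing about stability. For window coverage 5 of 73 members had an unadjusted p under 0.05 with NS added, against 2.03% of all genes tested. With a 1 Mb window it was 7 of 92 against 5.9%, and over the gene body 1 of 64 against 1.43%. With LADs of at least 1 Mb only, 34 members were inside in no library and the losses between time points fell to 4 from 10, as shorter LADs were dropped. With pseudogenes included, 63 genes were inside in every library and 47 in none, with 27 gains and 20 losses, on a larger set of genes. On finer steps only, 59 members were inside in every library, with no such count made over all genes. Gains and losses in the alternatives were counted for Vmn2r genes only, with no count over all genes beside them. The gains were 14 in all with both mice. Leaving out 1 library, so that 1 mouse sufficed, gave 14 to 27 gains (22 to 27 without replicate 2 of CT0, either replicate of CT6 or replicate 2 of CT12). It gave 11 to 26 losses (17 to 26 without replicate 1 of NS, CT0 or CT24, replicate 2 of CT12 or either replicate of CT18). Members with an unadjusted p under 0.05 then numbered 0 to 3 for state (1 without CT0 replicate 1, 3 without CT0 replicate 2, 2 without either CT12 replicate, 3 without CT24 replicate 2), and 1 to 6 for coverage (1 without either CT6 replicate or replicate 2 of CT18 or CT30, 4 without CT12 replicate 2, 5 without CT24 replicate 2, 6 without CT0 replicate 2). Of all genes tested with 1 library left out, 1.22 to 3.86% had such a p for state and 2.03 to 5.26% for coverage. With the replicate block, 0 members passed for either measure. An unadjusted p under 0.05 was then held by 0 of 64 members for state and 3 of 73 for coverage, against 0% and 1.64% of all genes tested. No depth is given for the libraries, so its effect cannot be stated.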

Other observations

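Vmn2r genes not annotated as protein-coding, most of them pseudogenes, numbered 114 on the autosomes. Of these, 27 (23.7%) were inside a LAD in all 14 libraries, 61 in 1 to 13 and 26 in none, with a median of 10 libraries. The 90 that lie within 1 Mb of a member had a median of 12 libraries, and all 27 that were always inside were among them. Vmn2r121, the protein-coding member of the family on the X chromosome, was inside in 0 libraries.

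Of all autosomal protein-coding genes, 4 others were outside in both CT0 mice and inside in the other 12 libraries, as Vmn2r46 and Vmn2r47 were. All 4 are on chromosome 7. Vmn1r81 and Vmn1r82 start at 12.268 and 12.300 Mb, toward the far end of the LAD that follows the assembly gap, which reached 12.267 and 10.872 Mb in the CT0 mice. Scgb2b7 and Scgb1b7, which encode secretoglobins, start at 31.706 and 31.713 Mb. Vmn2r28 shared its pattern with Vmn1r59 to Vmn1r64, 6 genes on the same chromosome, and no other gene. The pattern of Vmn2r67 to Vmn2r78, 12 members, was held by 79 other genes, 21 of them on chromosome 7 and the rest elsewhere, among them Defa genes, which encode defensins. Vmn2r9 and Vmn2r87 were inside in NS replicate 2 and CT12 replicate 1 only. Their pattern was shared by the 6 cytochrome genes Cyp2c38, Cyp2c39, Cyp2c40, Cyp2c67, Cyp2c68 and Cyp2c69 and by Meox2.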
